A study of Homo sapiens with 4 samples.

Results

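Glucose uptake, glycolysis and pentose phosphate genes were compared between 786-O cells transduced with PRDM16 lentivirus (2 libraries) and 786-O cells transduced with a control vector (2 libraries). The 34 genes were a given list of transporters and enzymes, matched to the gene names of the deposited table. That table holds 56753 loci with 1 value per library, read here as FPKM (fragments per kilobase, relative to library size) because its header names no unit. Each of the 34 was found, 29 in a locus of its own and 5 (GPI, PFKP, PFKFB4, ENO2 and SLC16A3) in a locus that also carries other gene names and gives 1 summed value. 786-O cells come from a human clear cell renal carcinoma and lack functional VHL, which both groups share, and both were stably transduced. PRDM16 is a zinc finger transcription regulator known above all from brown fat. The labels do not say whether the 2 libraries of a group came from separate cultures, so the p-values rest on library-to-library spread that may be technical only.

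Glucose enters the cell through SLC2A carriers, is phosphorylated by hexokinase and split into triose phosphates, and ends as pyruvate. Pyruvate is turned into lactate by lactate dehydrogenase and exported by SLC16A carriers, or enters mitochondria, where the pyruvate dehydrogenase complex makes acetyl-CoA unless a kinase (PDK) switches it off. The pentose phosphate pathway branches off after the hexokinase step and supplies NADPH and ribose. In cells without VHL, HIF alpha subunits are stable, and many of these genes are known HIF targets, so clear cell renal carcinoma is known for high glycolytic expression and for loss of the opposing enzyme FBP1.

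The labels and the library quality were checked first. PRDM16 itself was at 1226 and 1146 FPKM in PRDM16 cells, against 0.0157 and 0.234 FPKM in control vector cells. Renal markers were present at unlike levels. PAX8 was at 190.3 and 169 FPKM in PRDM16 cells, against 202 and 208 FPKM in control vector cells. LHX1 was at or below 0.256 FPKM in all 4 libraries. CDH16 was at 0.997 and 0.926 FPKM in PRDM16 cells, against 1.58 and 1.86 FPKM in control vector cells. EPCAM was at 7.27 and 8.76 FPKM in PRDM16 cells, against 10.0 and 12.8 FPKM in control vector cells. Of 5 renal markers tested in their own locus, 4 had lower means in PRDM16 cells and KRT8 a higher mean. Both PRDM16 values lay below both control vector values for 3 of these 5, where 20.3% of all tested loci did so. PAX2, among these 5, was at 4.62 and 5.37 FPKM in PRDM16 cells, against 5.22 and 5.12 FPKM in control vector cells. KRT18 and CDH6 share their loci with other gene names. The KRT18 locus was at 101.4 and 103.1 FPKM in PRDM16 cells, against 81.6 and 74.5 FPKM in control vector cells, higher and without overlap. The CDH6 locus was at 52.0 and 58.4 FPKM in PRDM16 cells, against 84.2 and 46.5 FPKM in control vector cells. Among markers of other cell types, the endothelial list (4 genes) summed to 0.22 and 0.209 FPKM in PRDM16 cells and to 0.203 and 0.188 FPKM in control vector cells, and the muscle list (3 genes) to at most 0.208 FPKM. Fibroblast markers (4 genes) summed to 4.32 and 4.77 FPKM in PRDM16 cells and 4.63 and 4.52 FPKM in control vector cells, with DCN at 0. Among leukocyte markers, CD3E was at 0, PTPRC and CD14 were at most 0.268 FPKM, and CD68 could not be read because its locus also names EIF4A1 (362 to 477 FPKM). Neuron markers (3 genes) summed to 5.50 and 6.20 FPKM in PRDM16 cells, against 7.83 and 10.7 FPKM in control vector cells, of which SYT1 gave 2.06 and 1.87 FPKM in PRDM16 cells and 4.09 and 6.57 FPKM in control vector cells. The part of these markers in the values of the 34 genes was not tested. Read depth behind the FPKM is unknown. Control vector replicate 2 stood apart. In bulk libraries, a different mix of cells and a different level per cell cannot be told apart. The median absolute log2 difference over 13246 tested loci was 0.0979 between the PRDM16 libraries, against 0.19 between the control vector libraries.

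The promoters of 3 genes are shown because these genes give the largest difference in FPKM among the carriers (SLC2A1), an abundant glycolytic enzyme whose PRDM16 values both exceed the control vector values (PGK1), and the largest ratio between groups among genes above 0 in all libraries (ALDOC). Each sequence is the 250 bases before the RefSeq start (build GRCh38.p14), 5′ to 3′ on the gene's strand, with capitals marking the core motif of HIF binding, ACGTG or GCGTG on either strand. The SLC2A1 window is chr1:42958869-42959118 on the minus strand, the PGK1 window is chrX:78103998-78104247 on the plus strand and the ALDOC window is chr17:28576896-28577145 on the minus strand.
SLC2A1: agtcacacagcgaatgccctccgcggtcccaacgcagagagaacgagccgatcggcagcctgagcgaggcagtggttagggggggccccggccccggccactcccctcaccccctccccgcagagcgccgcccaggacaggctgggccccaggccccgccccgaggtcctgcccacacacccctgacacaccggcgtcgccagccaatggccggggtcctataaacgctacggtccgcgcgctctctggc
PGK1: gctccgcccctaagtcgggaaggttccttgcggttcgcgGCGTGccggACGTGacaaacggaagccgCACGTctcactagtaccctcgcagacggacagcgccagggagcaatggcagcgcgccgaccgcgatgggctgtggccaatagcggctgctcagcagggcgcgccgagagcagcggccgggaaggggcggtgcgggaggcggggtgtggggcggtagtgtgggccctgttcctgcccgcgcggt
ALDOC: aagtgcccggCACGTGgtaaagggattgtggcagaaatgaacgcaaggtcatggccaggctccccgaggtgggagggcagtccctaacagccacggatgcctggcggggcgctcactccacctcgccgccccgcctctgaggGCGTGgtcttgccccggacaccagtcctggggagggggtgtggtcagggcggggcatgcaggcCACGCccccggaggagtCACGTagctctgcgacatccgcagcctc

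The ALDOC window held 5 matches, of which 2 are the same CACGTG read on both strands. The PGK1 window held 3, at 211, 202 and 183 bases before the start, and the SLC2A1 window held 0. RefSeq promoters were listed for 31 of the 34 genes, and 20 of these had a single listed start. Of those 20, 14 (70.0%) held either motif, against 42.2% of all 22114 genes with a single start. The windows of the 20 genes were richer in G and C (median 71.2%, against 57.2% for all), and among windows with at least 60% G and C the shares were 76.5% of 17 and 59.7% of 9646. A match to 5 letters describes these windows and is not evidence of binding.

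None of the 34 genes passed the test between PRDM16 and control vector cells. The test was limma on log2(FPKM + 1) over all 13246 loci with a mean of at least 1 FPKM, with Benjamini-Hochberg adjustment and a threshold of 0.05. It covered 27 genes in their own locus and the 5 loci with several names. It called 0.0226% of all tested loci (0.0151% higher and 0.00755% lower) and 0 of the 32, with a smallest adjusted p of 0.689 among the 32. At an unadjusted p under 0.05 there were 2 of the 27 (SLC16A1 higher, PDK2 lower) and 2 of the 5 (PFKP and ENO2, both lower), where 6.12% of all tested loci met that limit. The median log2 change of the 27 was 0.02, with 14 above 0 and 13 below. Over all tested loci the median was 0.004, with 50.7% above 0. Without control vector replicate 2 the median of the 27 was -0.07, with 9 above 0 and 18 below, and without control vector replicate 1 it was 0.08, with 18 above 0 and 9 below. The 95% intervals of the 32 changes lay within -0.93 and 0.59 on the log2 scale.

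**Figure D1:**
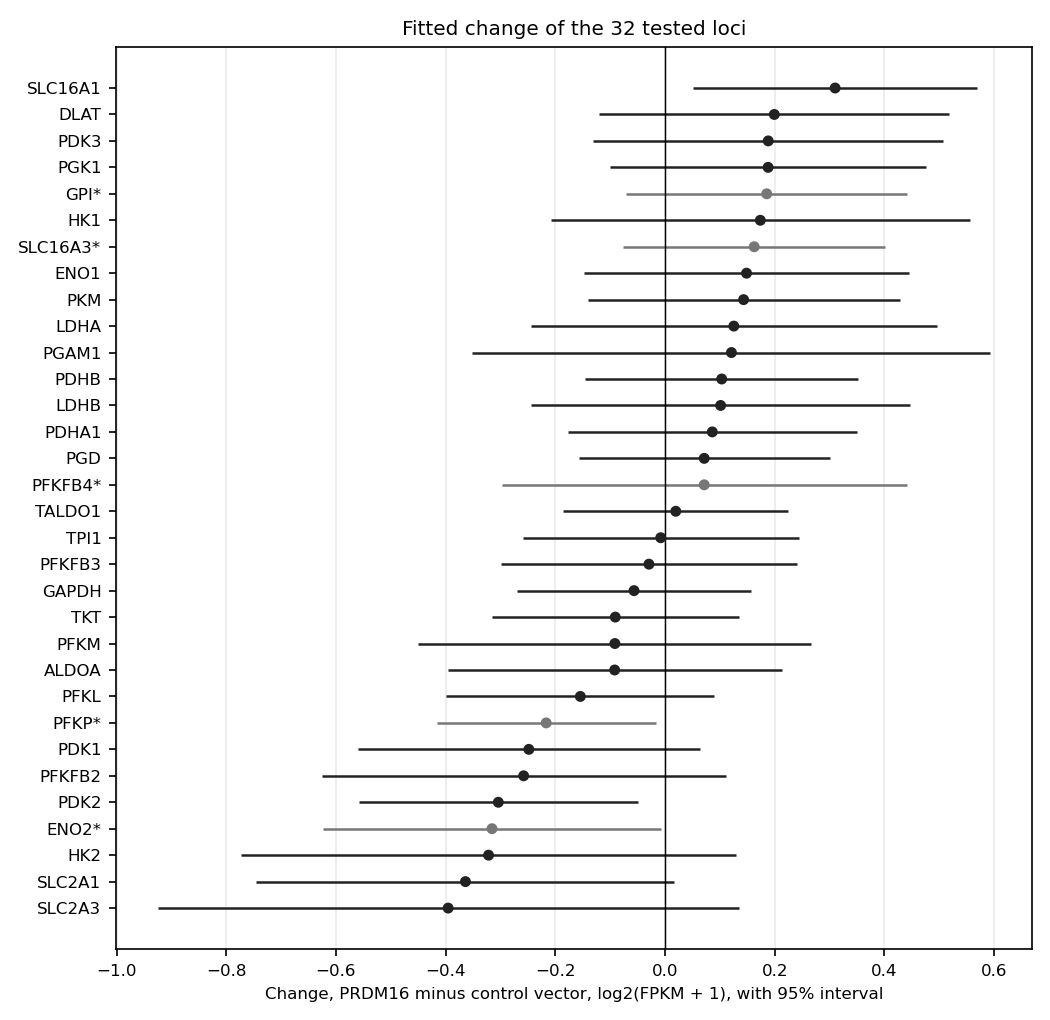
Change of each of the 32 tested loci (PRDM16 minus control vector, log2(FPKM + 1)) with its 95% interval from limma; 2 libraries per group, and grey points with an asterisk are loci with several gene names. The points run from -0.40 (SLC2A3) to 0.31 (SLC16A1), and only the intervals of SLC16A1, PDK2, ENO2 and PFKP leave out 0.

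The groups did not overlap for 14 of the 27 genes. The PRDM16 values both exceeded the control vector values for 6 genes or 22.2% (SLC16A1, PGK1, PDK3, PDHB, DLAT and PGD), where 21.1% of all tested loci did. They were both below for 8 genes or 29.6% (SLC2A1, SLC2A3, HK2, PFKL, PFKFB2, PDK1, PDK2 and TKT), where 20.3% of all tested loci were. These shares depend on level. Among loci with a mean of at least 30 FPKM, 27.9% were above and 14.7% below. The 22.2% and 29.6% of the 27 genes cover all levels and are not comparable with these shares. Of the genes with a mean of at least 30 FPKM, only SLC2A1, PFKL and TKT were below. Those above at that level were SLC16A1, PGK1, PDHB and PGD. SLC2A3, HK2, PFKFB2, PDK1 and PDK2 among the genes below, and PDK3 and DLAT among those above, had means under 30 FPKM. Of the 5 loci with several names, GPI and SLC16A3 were above and PFKP and ENO2 below.

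The genes spanned the whole range of expression in this line, as the plot of levels shows. ENO1 and GAPDH were both at the 99.9th percentile of tested loci, while PFKFB2 and PDK3 sat at the 27.8th and 28.1th. Together the 34 loci made up 2.65% and 2.67% of summed FPKM in PRDM16 cells, against 2.76% and 2.53% in control vector cells. Both PRDM16 shares lay between the control vector shares.

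**Figure D2:**
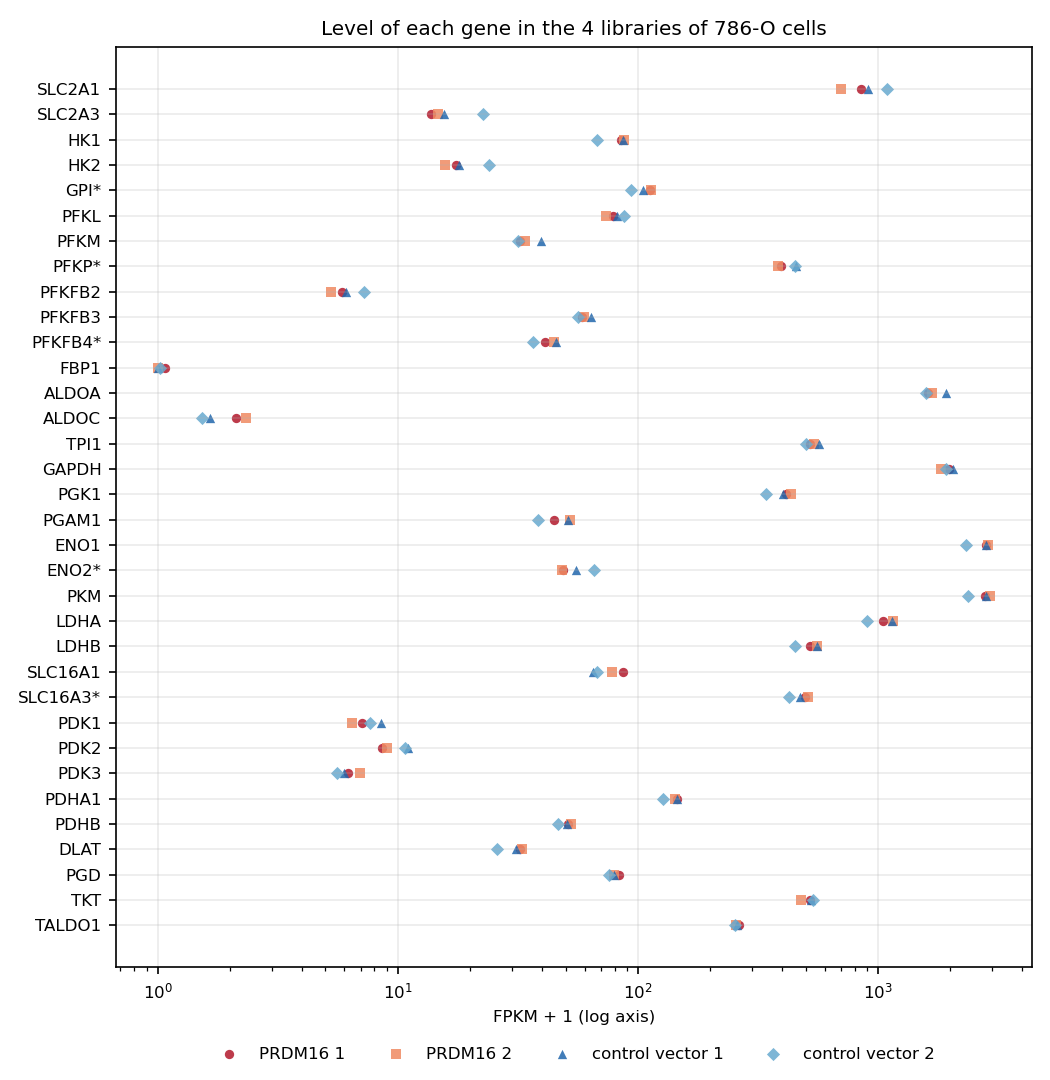
FPKM + 1 of each of the 34 genes on a log axis, in pathway order from the glucose carriers at the top to the pentose phosphate enzymes at the bottom; each mark is 1 library, and an asterisk marks a locus with several gene names. Levels run from FBP1, at or below 0.0681 FPKM, to ENO1 and PKM, at 2332 FPKM or more in every library.

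Both glucose carriers had lower values in PRDM16 cells, and neither passed the test. SLC2A1 encodes GLUT1, the main glucose carrier of most cancer lines, and lies on chromosome 1 at 42925375 to 42959176 on the minus strand of GRCh38. It was at 852 and 702 FPKM in PRDM16 cells, against 909 and 1090.0 FPKM in control vector cells. The groups did not overlap, and the means were 777 ± 106 and 999.5 ± 128 FPKM (SD, n = 2 each). The log2 change of -0.36 (SE 0.14, 95% interval -0.74 to 0.02) had a limma adjusted p of 0.689. Leaving out control vector replicate 2 gave -0.23, and leaving out PRDM16 replicate 2 gave -0.22. SLC2A3, which encodes the high-affinity carrier GLUT3, was far lower in level, at 12.8 and 13.8 FPKM in PRDM16 cells, against 14.6 and 21.6 FPKM in control vector cells. Its log2 change of -0.40 (SE 0.20, limma adjusted p = 0.689) was -0.13 when control vector replicate 2 was left out and -0.66 when control vector replicate 1 was. SLC2A1 made up 98.5% and 98.1% of the FPKM of this pair in PRDM16 cells and 98.4% and 98.1% in control vector cells. The near-identical SLC2A14 was at or below 0.218 FPKM in all libraries.

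Hexokinases phosphorylate glucose and trap it in the cell. HK2, the inducible isoform, was at 16.5 and 14.7 FPKM in PRDM16 cells, against 16.9 and 23.0 FPKM in control vector cells, a log2 change of -0.32 (SE 0.17, limma adjusted p = 0.689). Leaving out control vector replicate 2 gave -0.11, and leaving out control vector replicate 1 gave -0.53. HK1, the widely expressed isoform, was at 84.1 and 86.4 FPKM in PRDM16 cells, against 85.6 and 66.5 FPKM in control vector cells. In control vector replicate 2, HK2 was the highest and HK1 the lowest of the 4 libraries. HK2 took 16.4% and 14.5% of the summed FPKM of HK1 and HK2 in PRDM16 cells, against 16.5% and 25.7% in control vector cells. That sum leaves out the hexokinase-like HKDC1, at 51.8 and 36.3 FPKM in PRDM16 cells, against 42.3 and 75.8 FPKM in control vector cells. HKDC1 exceeded HK2 in every library, so the HK2 share with HKDC1 counted would be smaller. The pseudogene HK2P1, whose reads can be shared with HK2, was at 2.51 and 1.86 FPKM in PRDM16 cells, against 2.44 and 3.56 FPKM in control vector cells. GPI, the isomerase that makes fructose 6-phosphate, was measured with PDCD2L, at 112 and 112 FPKM in PRDM16 cells and 104 and 92.8 FPKM in control vector cells. The log2 change of that locus was 0.19 (SE 0.10), and 0.10 when control vector replicate 2 was dropped.

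Phosphofructokinase commits sugar to glycolysis, and its 3 isoforms had lower means in PRDM16 cells without passing the test. PFKP, the platelet-type isoform, dominated, at 395 and 383 FPKM in PRDM16 cells, against 455 and 449 FPKM in control vector cells. The libraries agreed within each group, and the log2 change was -0.22 (SE 0.08, 95% interval -0.42 to -0.02, limma adjusted p = 0.689). It ranged from -0.24 to -0.20 when any library was left out. This locus also names PITRM1-AS1 and another transcript, so the difference cannot be assigned to PFKP alone. PFKL, the liver-type isoform, was at 77.5 and 72.4 FPKM in PRDM16 cells, against 80.8 and 86.2 FPKM in control vector cells (log2 change -0.15, SE 0.09). PFKM, the muscle-type isoform, was at 31.3 and 33.0 FPKM in PRDM16 cells, against 38.4 and 30.7 FPKM in control vector cells, and these overlapped. PFKP made up 78.4% of phosphofructokinase FPKM in both PRDM16 libraries, against 79.2% and 79.3% in control vector cells.

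PFKFB enzymes set the level of fructose 2,6-bisphosphate, the activator of phosphofructokinase. PFKFB3, the isoform with the strongest kinase activity, was at 57.3 and 58.7 FPKM in PRDM16 cells, against 63.1 and 55.6 FPKM in control vector cells. PFKFB4, measured together with UCN2, was at 40.0 and 43.8 FPKM in PRDM16 cells, against 44.5 and 35.6 FPKM in control vector cells. Both overlapped between groups. PFKFB2 was low, at 4.84 and 4.29 FPKM in PRDM16 cells, against 5.09 and 6.25 FPKM in control vector cells, a log2 change of -0.26 (SE 0.14, limma adjusted p = 0.689) that was -0.13 when control vector replicate 2 was dropped. FBP1, which runs the phosphofructokinase step backwards, was near 0 in all libraries, at 0.0681 and 0 FPKM in PRDM16 cells and 0 and 0.0179 FPKM in control vector cells. A listed 0 need not mean absence in this table, since the 11 loci of mitochondrial genome genes were at 0 throughout. Why they were at 0, and whether this bears on FBP1, was not tested.

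Aldolase splits the phosphorylated sugar. ALDOA was at 1614 and 1672 FPKM in PRDM16 cells, against 1928 and 1589 FPKM in control vector cells, so the PRDM16 libraries lay inside the control vector range. ALDOC, an aldolase best known from brain, was at 1.11 and 1.34 FPKM in PRDM16 cells, against 0.652 and 0.528 FPKM in control vector cells. The groups did not overlap, and the ratio of means was 2.08, at a level near the lower limit of the table. Its mean was below the filter of 1 FPKM, and without that filter its log2 change was 0.48 (limma adjusted p = 0.745). It made up 0.069% and 0.0799% of aldolase FPKM in PRDM16 cells, against 0.0338% and 0.0332% in control vector cells. Triose phosphate isomerase, TPI1, was at 518 and 543 FPKM in PRDM16 cells, against 567 and 502 FPKM in control vector cells. Its log2 change of -0.01 was 0.01 with median-of-ratios scaling. TPI1 has pseudogene loci whose FPKM summed to between 61.8% and 69.7% of its own, so its level is uncertain.

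In the lower steps of glycolysis most enzymes had their lowest value in control vector replicate 2. The plot of deviations from the mean shows this as blue cells from PGK1 to LDHB in the last column, with ENO2 red. ENO1, the main enolase, was at 2814 and 2873 FPKM in PRDM16 cells, against 2821 and 2332 FPKM in control vector cells. PKM, pyruvate kinase, was at 2796 and 2939.7 FPKM in PRDM16 cells, against 2830.1 and 2381 FPKM in control vector cells. In both genes control vector replicate 1 lay between the PRDM16 libraries. Their log2 changes of 0.15 and 0.14 became 0.01 and 0.02 without control vector replicate 2 and 0.29 and 0.27 without control vector replicate 1, and that of PKM was 0.00 after quantile normalization.

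**Figure D3:**
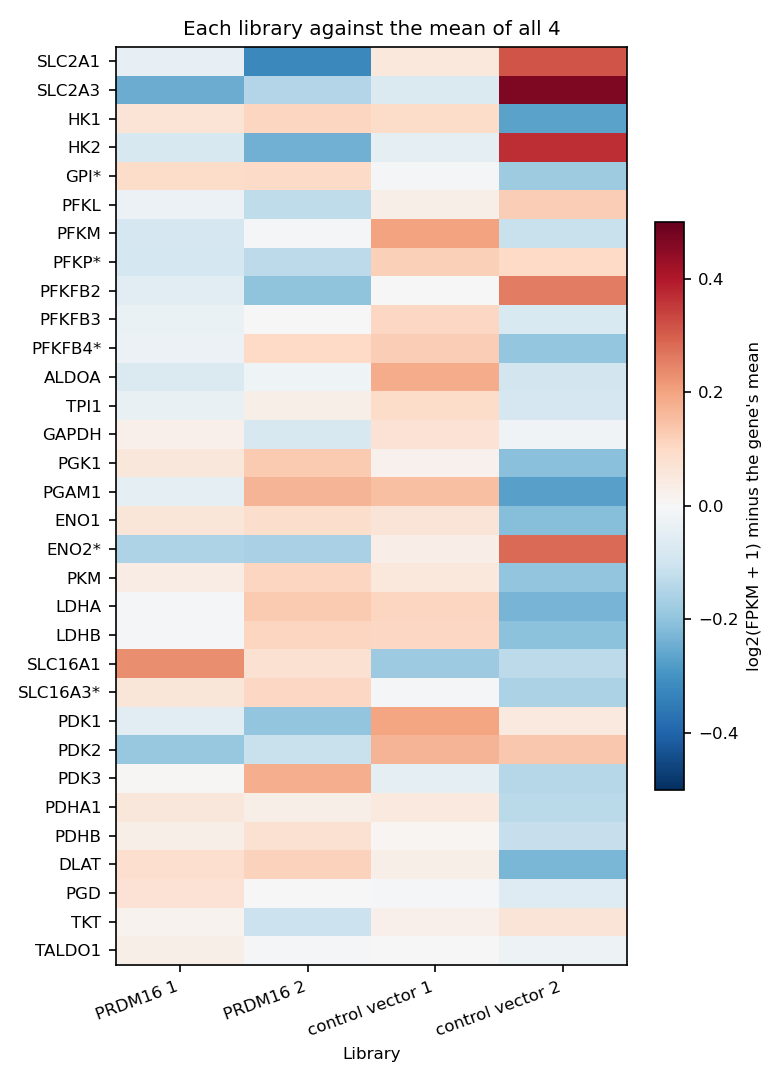
Colour shows log2(FPKM + 1) of each library minus the gene's mean over the 4 libraries, for the 32 tested loci in pathway order; red is above and blue below the mean, and an asterisk marks a locus with several gene names. Control vector replicate 2, in the last column, holds the lowest value in 20 of 32 rows and the highest in 7.

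GAPDH, the usual reference gene of expression assays, was at 1976 and 1837 FPKM in PRDM16 cells, against 2045 and 1920.0 FPKM in control vector cells. Its log2 change of -0.06 (SE 0.08) was 0.03 after quantile normalization, and 60 pseudogene loci named after it together carried 14.8% to 17.5% of its FPKM. PGK1, phosphoglycerate kinase, was at 412 and 434 FPKM in PRDM16 cells, against 402 and 343 FPKM in control vector cells, so the groups did not overlap. Its log2 change of 0.19 (SE 0.11, limma adjusted p = 0.689) was 0.07 when control vector replicate 2 was dropped, and 0.30 on dropping control vector replicate 1. PGAM1, phosphoglycerate mutase, was at 43.7 and 51.1 FPKM in PRDM16 cells and 50.4 and 37.3 FPKM in control vector cells. PGAM4, a retrocopy of PGAM1 that can take its reads, was at 21.8 and 23.4 FPKM in PRDM16 cells and 24.995 and 16.3 FPKM in control vector cells. Both genes overlapped between groups and were lowest in control vector replicate 2.

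The locus of ENO2, the neuron-type enolase and a known HIF target, had a lower mean in PRDM16 cells. It also names LRRC23, DSTNP2 and another transcript, so neither the difference nor the contrast with ENO1 can be assigned to ENO2 alone. The locus was at 47.7 and 47.5 FPKM in PRDM16 cells, against 54.5 and 65.0 FPKM in control vector cells. The groups did not overlap, and the log2 change was -0.32 (SE 0.12, 95% interval -0.62 to -0.01, limma adjusted p = 0.689). With control vector replicate 2 left out it came to -0.19. The share of this locus in enolase FPKM was 1.67% and 1.63% in PRDM16 cells, against 1.89% and 2.71% in control vector cells.

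The lactate dehydrogenase subunits had nearly the same proportion in all libraries. LDHA, the subunit that favours lactate, was at 1054 and 1159 FPKM in PRDM16 cells, against 1141 and 899.9 FPKM in control vector cells. LDHB, the subunit that favours pyruvate, was at 518 and 559 FPKM in PRDM16 cells, against 559 and 450.3 FPKM in control vector cells. LDHA made up 66.7% to 67.5% of their sum over the 4 libraries. The sum itself was 1572 and 1718 FPKM in PRDM16 cells, against 1699 and 1350.0 FPKM in control vector cells. The log2 changes of 0.13 and 0.10 were -0.05 for both without control vector replicate 2. Over the 7 lower glycolytic genes in their own locus, 6 had a higher and 1 a lower mean in PRDM16 cells, with a median log2 change of 0.13. After quantile normalization 6 were higher, 0 were lower and PKM had a log2 change of 0.00. The count of higher means was 3 of 7 without control vector replicate 2, where the median was -0.05. With all libraries kept, 50.7% of all tested loci had a higher mean in PRDM16 cells. The share was 61.6% of loci with a mean of at least 30 FPKM, the range that holds these 7 genes.

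**Figure D4:**
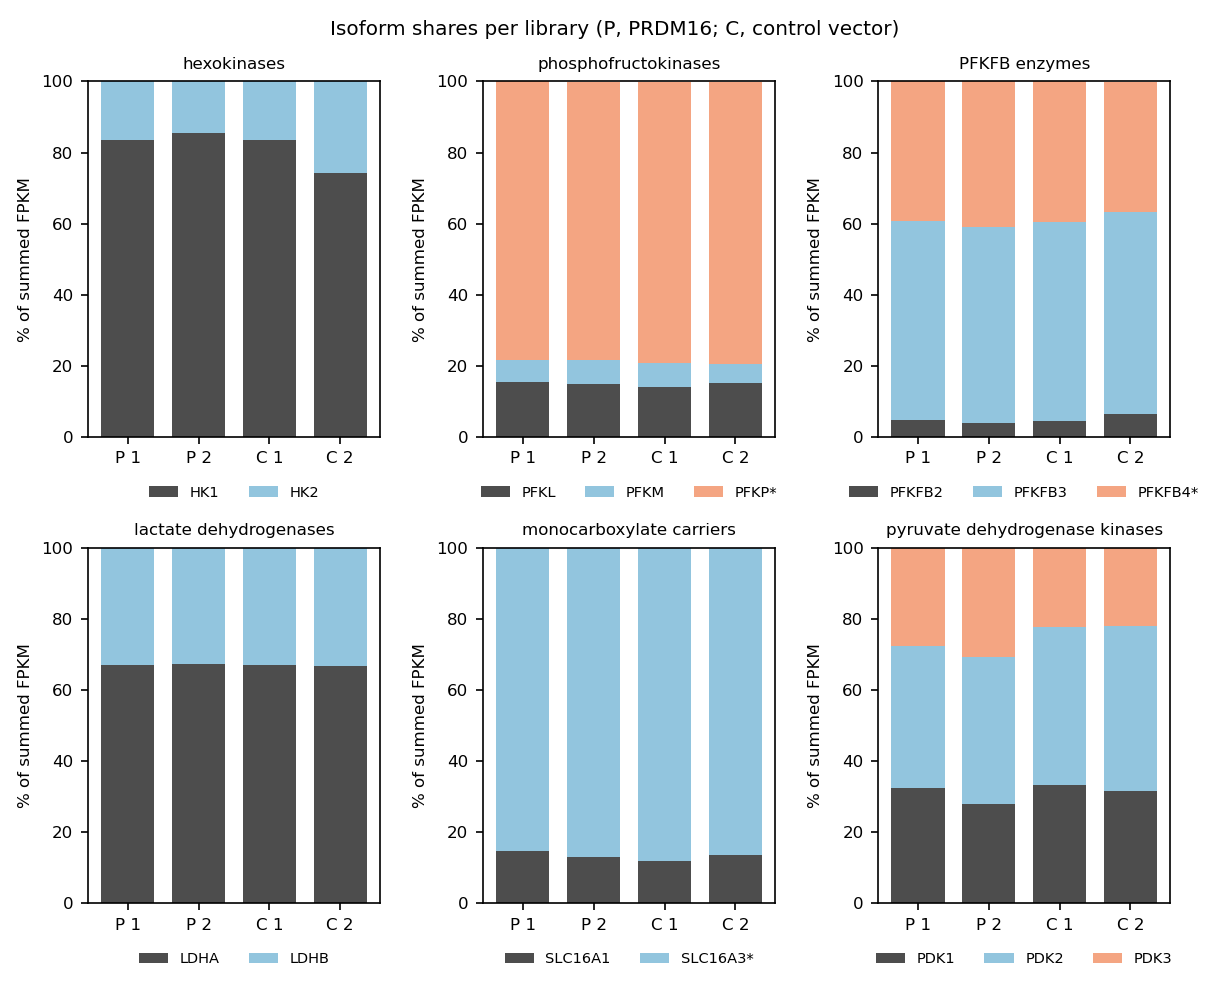
Share of each isoform in the summed FPKM of its family, in percent, for each library (P, PRDM16; C, control vector; the digit is the replicate); an asterisk marks a locus with several gene names. The LDHA share stays between 66.7% and 67.5%. HK2 reaches 25.7% of the sum of HK1 and HK2 in control vector replicate 2 only, and HKDC1 is left out of that sum. PDK3 takes 27.5% and 30.7% in PRDM16 cells against 22.1% and 21.8% in control vector cells.

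Both lactate carriers had higher values in PRDM16 cells, and neither passed the test. SLC16A1 encodes MCT1, a carrier of lactate and pyruvate, and lies on chromosome 1 at 112911847 to 112957013 on the minus strand. It was at 85.9 and 76.9 FPKM in PRDM16 cells, against 64.2 and 66.5 FPKM in control vector cells. The groups were separate, at means of 81.4 ± 6.36 and 65.4 ± 1.64 FPKM (SD, n = 2 each), and here the control vector libraries agreed. The log2 change of 0.31 (SE 0.10, 95% interval 0.05 to 0.57) had a limma adjusted p of 0.689, and it ranged from 0.23 to 0.39 when any library was left out. SLC16A3, which encodes the lactate exporter MCT4 and was measured in a locus that also names MIR6787, was at 494 and 510.2 FPKM in PRDM16 cells, against 473 and 425 FPKM in control vector cells. The log2 change of this locus, 0.16 (SE 0.09, limma adjusted p = 0.689), was 0.09 when control vector replicate 2 was left out.

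Kinases of the pyruvate dehydrogenase complex differed among themselves. PDK2 (chromosome 17, 50094737 to 50112152, plus strand) was at 7.59 and 8.06 FPKM in PRDM16 cells, against 10.0 and 9.75 FPKM in control vector cells. Replicates agreed, and the means of 7.83 ± 0.338 and 9.89 ± 0.204 FPKM (SD, n = 2 each) gave a log2 change of -0.30 (SE 0.10, 95% interval -0.56 to -0.05, limma adjusted p = 0.689). It ranged from -0.34 to -0.26 when any library was left out. PDK1, a known HIF target, was at 6.13 and 5.45 FPKM in PRDM16 cells, against 7.48 and 6.66 FPKM in control vector cells, a log2 change of -0.25 (SE 0.12). PDK3 was at 5.19 and 5.99 FPKM in PRDM16 cells, against 4.97 and 4.58 FPKM in control vector cells, a log2 change of 0.19 (SE 0.12) that was 0.10 when PRDM16 replicate 2 was dropped. Each of the 3 had separate groups, PDK1 and PDK2 lower and PDK3 higher, and none passed. PDK2 made up 40.1% and 41.3% of their summed FPKM in PRDM16 cells, against 44.6% and 46.4% in control vector cells, while the share of PDK3 was larger in both PRDM16 libraries.

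The subunits of the complex had higher means in PRDM16 cells, and none passed the test. PDHA1, a subunit of the first enzyme, was at 145 and 142 FPKM in PRDM16 cells, against 144 and 127 FPKM in control vector cells. PDHB, its partner subunit, was at 50.2 and 51.8 FPKM in PRDM16 cells, against 49.6 and 45.3 FPKM in control vector cells. DLAT, the acetyltransferase, was at 31.2 and 31.9 FPKM in PRDM16 cells, against 29.99 and 24.9 FPKM in control vector cells. In all 3, control vector replicate 1 lay within 2 FPKM of a PRDM16 library and control vector replicate 2 was the lowest library. Their log2 changes were between 0.09 and 0.20, and between -0.01 and 0.07 without control vector replicate 2.

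The pentose phosphate enzymes had log2 changes between -0.09 and 0.07. TALDO1, transaldolase, was at 263 and 256 FPKM in PRDM16 cells, against 258 and 254 FPKM in control vector cells, a log2 change of 0.02 (95% interval -0.19 to 0.22) that was -0.02 after quantile normalization. PGD, which makes NADPH, was at 82.6 and 78.6 FPKM in PRDM16 cells, against 78.2 and 75.1 FPKM in control vector cells (log2 change 0.07, SE 0.09, and 0.04 when either PRDM16 replicate 1 or control vector replicate 2 was dropped). TKT, transketolase, was at 521 and 477 FPKM in PRDM16 cells, against 525 and 538 FPKM in control vector cells (log2 change -0.09, SE 0.09). Dropping PRDM16 replicate 2 gave -0.03 for TKT and dropping PRDM16 replicate 1 gave -0.15.

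Neighbouring pathways, from 7 lists of other genes, held no call either. Over all tested loci, 50.7% had a higher mean in PRDM16 cells. Of 12 other transporters, 8 were tested, with 2 higher and 6 lower means, and basigin (BSG), the chaperone of the lactate carriers, was at 697 and 698 FPKM in PRDM16 cells and 653 and 725 FPKM in control vector cells. The sugar carrier SLC2A10 had the smallest p of that list, at 2.68 and 2.68 FPKM in PRDM16 cells, against 3.70 and 4.23 FPKM in control vector cells (log2 change -0.43, SE 0.12, limma adjusted p = 0.689). MPC1, part of the mitochondrial pyruvate carrier, was at 13.6 and 13.8 FPKM in PRDM16 cells, against 10.9 and 12.8 FPKM in control vector cells. Of 17 other glycolytic isoforms, 8 were tested, with 6 higher and 2 lower means. The lower ones were GCKR, the glucokinase regulator, and HKDC1, a hexokinase-like enzyme. GCKR was at 1.22 and 0.885 FPKM in PRDM16 cells, against 2.45 and 2.23 FPKM in control vector cells, a log2 change of -0.71 (SE 0.16, limma adjusted p = 0.689). HKDC1 was at 51.8 and 36.3 FPKM in PRDM16 cells, against 42.3 and 75.8 FPKM in control vector cells, an overlap.

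Gluconeogenic genes (3 of 6 tested, all 3 with lower means) included PC, pyruvate carboxylase, at 9.78 and 9.62 FPKM in PRDM16 cells, against 10.1 and 12.5 FPKM in control vector cells. PCK2, the mitochondrial PEP carboxykinase, was at 48.3 and 30.4 FPKM in PRDM16 cells, against 30.9 and 96.5 FPKM in control vector cells. Control vector replicate 2 was more than 3 times control vector replicate 1 for PCK2. In the other pentose phosphate list, 8 genes were tested alone, 4 with higher and 4 with lower means. RBKS, ribokinase, was at 4.51 and 4.42 FPKM in PRDM16 cells, against 5.58 and 7.36 FPKM in control vector cells (log2 change -0.44, SE 0.15, limma adjusted p = 0.689), and the change was -0.27 when control vector replicate 2 was dropped. H6PD, an enzyme of the endoplasmic reticulum that makes NADPH, was at 7.78 and 6.24 FPKM in PRDM16 cells, against 8.25 and 12.9 FPKM in control vector cells. Higher means were found for 2 of 5 tested genes of pyruvate dehydrogenase control, 4 of 9 of glycogen metabolism and 5 of 7 of the hexosamine and polyol routes. DLD and PDHX, the remaining subunits of the complex, both had a log2 change of 0.15, which was 0.07 for DLD and 0.08 for PDHX when control vector replicate 2 was dropped and 0.05 for PDHX when PRDM16 replicate 2 was dropped.

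PGM1, which links glycogen to glycolysis, was at 75.1 and 73.7 FPKM in PRDM16 cells, against 82.4 and 86.0 FPKM in control vector cells. PGM2, its relative, was at 45.2 and 43.0 FPKM in PRDM16 cells, against 43.4 and 36.4 FPKM in control vector cells. AKR1B1, aldose reductase of the polyol route, was at 1662 and 1571 FPKM in PRDM16 cells, against 1889 and 1879.7 FPKM in control vector cells. This gave a log2 change of -0.22 (SE 0.07, limma adjusted p = 0.689). UAP1, which makes UDP-N-acetylglucosamine, was at 81.5 and 71.8 FPKM in PRDM16 cells, against 55.1 and 64.2 FPKM in control vector cells, a log2 change of 0.36 (SE 0.12, limma adjusted p = 0.689). The groups were separate for PGM1, AKR1B1 and UAP1, and no gene of the 7 lists passed. At an unadjusted p under 0.05, met by 6.12% of all tested loci, there were 3 of 7 genes in the hexosamine and polyol list (AKR1B1, UAP1 and GFPT2, the last named after its values were seen). There was 1 of 8 in each of the lists of other transporters (SLC2A10), other glycolytic isoforms (GCKR) and other pentose phosphate genes (RBKS), and 0 of 3, 0 of 5 and 0 of 9 in the lists of gluconeogenesis, pyruvate dehydrogenase control and glycogen.

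HIF alpha subunits are known drivers of many of these genes in cells without VHL. The RNA levels below do not show which subunit is made as functional protein in 786-O cells. EPAS1 (HIF-2 alpha) was at 74.0 and 63.6 FPKM in PRDM16 cells, against 79.6 and 141 FPKM in control vector cells, with control vector replicate 2 the highest library. Its log2 change was -0.62 with an SE of 0.29 (limma adjusted p = 0.689), and it was -0.21 when that library was dropped. HIF1A, in a locus that also names SNAPC1, was at 149 and 140.2 FPKM in PRDM16 cells and 134 and 127 FPKM in control vector cells. VHL was at 23.8 and 23.7 FPKM in PRDM16 cells and 22.0 and 25.2 FPKM in control vector cells. Whether the EPAS1 level plays a part in the levels of the carriers was not tested.

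Control vector replicate 2 was the lowest library for 17 of the 27 genes tested in their own locus (63.0%). It was the lowest at 38.7% of all tested loci, and at 52.7% of the 3924 loci with a mean of at least 30 FPKM, the range that holds most of these genes. The same library was the highest for 6 of the 27 or 22.2% (SLC2A1, SLC2A3, HK2, PFKL, PFKFB2 and TKT). It was the highest at 33.9% of all tested loci and at 26.4% of those with a mean of at least 30 FPKM. The median absolute log2 difference over the 27 was 0.0781 between the PRDM16 libraries and 0.231 between the control vector libraries. Whether this library plays a part in the values of single genes was tested only by leaving it out.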

How the data were processed

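Total RNA of 786-O cells was sequenced in 2 libraries per group, per the labels' protocols. The authors' deposited table gives FPKM per locus, a unit read from the values and the tools, since its header names none. The submitters' processing notes name hg38, Cuffdiff, Cufflinks 2.2.1, TopHat2 2.1.0 and Trim Galore. The sources used here do not give annotation, scaling or strand setting. Depth is unknown. At loci under 0.3 FPKM, the most frequent ratio of values put PRDM16 replicates 1 and 2 and control vector replicate 2 at 1.25, 1.17 and 1.40 times the depth of control vector replicate 1. Gene positions are from GENCODE release 29 and promoter windows from RefSeq (GRCh38.p14).

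Loci with a mean of at least 1 FPKM were tested with limma 3.58.1 (R 4.3.3) on log2(FPKM + 1), with a variance trend, a two-sided moderated test and Benjamini-Hochberg adjustment over all 13246 loci. That scale understates the change of low genes. An exact permutation test of 2 against 2 libraries cannot go below p = 0.333. The test was also run on simulated data with independent noise at each locus. Such data cannot show how it behaves when 1 library is shifted at many loci. Levels and shares were computed with Python 3.11.15 and pandas 2.3.3. The naming rule took the 34 genes, PRDM16, EPAS1, HIF1A and VHL, and the 2 smallest p of each neighbouring list. Genes and lists were chosen with earlier results of these data known. BSG, SLC2A14, PGAM4, GFPT2, HK2P1, LHX1, PAX2, PAX8, CDH6, CDH16, EPCAM, KRT8 and KRT18 were named in addition. Alternatives covered pseudocount, filter, scaling, variance model, replicate block and leaving out each library.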

Additional observations from a re-analysis of the deposited data

How the results depend on the processing

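No gene of the list was called under any alternative, loci with several names included. Leaving out 1 library gave 16 to 39 called loci in place of 3: 16 and 18 on dropping PRDM16 replicate 2 or 1, and 30 and 39 on dropping control vector replicate 2 or 1. A pseudocount of 0.1 gave 5, robust variances 5, the replicate block 5, dropping the variance trend 6, dropping the filter 1 and an adjusted p under 0.01 also 1. Genes above control in both PRDM16 libraries numbered 6 to 18 and genes below 8 to 13 when 1 library was left out, where 30.1% to 43.9% of all tested loci were above and 27.6% to 40.7% below. The median log2 change of the 27 genes ranged from -0.07 to 0.08 when 1 library was left out. Over the other alternatives, 316 of 320 changes kept their direction and the exceptions were PKM with quantile normalization (0.00), TPI1 with median-of-ratios scaling (0.0061), GAPDH with quantile normalization (0.0322) and TALDO1 with quantile normalization (-0.0221). When 1 library was left out, 11 of 128 changes turned round, over 10 loci. The labels do not say that replicate numbers pair libraries, and the deviations of same-numbered libraries correlated at -0.058 over the tested loci. With all libraries kept, the smallest limma adjusted p among the tested loci of the list depended on the setting. It ran from 0.674 with median-of-ratios scaling to 0.917 with the replicate block. Leave-one-out ranges were -0.0065 to 0.3542 for HK1, -0.2479 to 0.0652 for PFKM, -0.1192 to 0.0607 for PFKFB3, -0.0857 to 0.2287 for PFKFB4, -0.231 to 0.0475 for ALDOA, -0.0946 to 0.079 for TPI1, -0.0918 to 0.334 for PGAM1, -0.0453 to 0.2963 for LDHA, -0.0539 to 0.2567 for LDHB and -0.0057 to 0.1781 for PDHA1. Loci under 1 FPKM, FBP1 and ALDOC here, are at the limit of what the unknown depth allows.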
